A study of Mus musculus with 4 samples.

Results

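The melanocyte lineage transcription factors described here are Mitf, Sox10, Sox9, Sox5, Pax3, Tfap2a, Tfap2b, Tfec, Foxd3 and Irf4. They were chosen by gene symbol, for their known roles and not by a threshold on their values, and all 10 were found among the 39179 Ensembl gene identifiers of the count data. Of the 10, 9 had at least 1 count in some library and 6 were abundant enough to be tested. B16F1 is a mouse melanoma cell line. RNA-seq was carried out on 2 libraries of parental B16F1 cells, the control, and on 2 libraries of tumor-repopulating cells (TRCs) of the same line. TRCs are the cells that formed colonies from single B16F1 cells embedded in soft 3-dimensional fibrin gels of 90 Pa, and they were isolated on day 5. The labels name no added drug or gene in either group. Growth in the gel and isolation from it separate the groups together, and their parts cannot be told apart. The libraries carry the numbers 1 and 3 in each group. No source used here says that they came from separate cultures, so the p-values below measure the spread between these libraries, which may be technical.

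Melanocytes descend from the neural crest, and a small circuit of transcription factors sets their identity. PAX3 and SOX10 activate the Mitf gene, and MITF, a basic helix-loop-helix leucine zipper protein, binds E-box sequences in the promoters of pigment enzyme and melanosome genes, many of which SOX10 also binds. SOX9 belongs to the same SOX group as SOX10 and is the main chondrogenic factor, which acts with SOX5 and SOX6 on cartilage collagen genes, while SOX5 can oppose SOX10 on pigment gene promoters. TFAP2A and TFAP2B are AP-2 factors of the crest and of melanocytes. TFEC is a relative of MITF, FOXD3 is an early crest factor that holds Mitf back, and IRF4 acts with MITF on the tyrosinase gene.

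Between 35948295 and 43511554 counts fell on genes per library, and 3 counts, the smallest number taken as detectable, equal 0.0675 to 0.0850 CPM (counts scaled to the library size with the TMM method). Reads that did not map uniquely made up 15.2% and 17.1% of alignments in the parental and 18.3% and 25.2% in the TRC libraries. Their part in the results was not tested. Of 11483 genes tested, 1822 were called between TRCs and parental cells at an FDR under 0.05 (edgeR exact test with Benjamini-Hochberg adjustment), which is 15.9% of them, 8.81% called higher and 7.05% called lower in TRCs. The groups did not overlap for 60.6% of the genes tested. All 7 melanocyte marker genes were tested and their summed level was 18270 and 15453 CPM in the parental and 23462 and 26226 CPM in the TRC libraries, so melanocyte transcripts were abundant in every library. In bulk RNA, fewer cells of a type and less RNA per cell cannot be told apart.

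None of the 6 tested factors was called, by the edgeR exact test, by edgeR's quasi-likelihood test or by DESeq2, against the 15.9% of all genes that the exact test called. At an unadjusted p under 0.05, each of the 3 tools counted 1 factor, lower in TRCs, which in the exact test was Sox9. Of the 6, 3 had groups that did not overlap, against 60.6% of all genes tested: Sox9 and Tfap2a were lower and Sox5 was higher in both TRC libraries. The median log2 fold change of the 6 was 0.057, beside 0.0034 over all genes tested, with 3 above and 3 below 0.

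Compared per kilobase of exon, the factors formed 3 tiers of level. The length was that of all annotated exons of a gene merged, 3051 bases for Sox10 and 6196 for Mitf. Sox10 stood first at 173 ± 34.9 CPM per kb in parental cells and 190 ± 5.41 in TRCs (mean ± SD, n = 2, as for every ± on a level). Mitf followed at 76.2 ± 26.1 and 88.2 ± 5.39 CPM per kb. Pax3 was next at 42.2 ± 12.3 and 41.5 ± 3.52, and then Tfap2a at 31.0 ± 4.05 and 25.3 ± 0.900 CPM per kb. These 4 were among the more abundant transcripts of the cells: per kb, Sox10 lay above 98.2%, Mitf above 95.7%, Pax3 above 89.9% and Tfap2a above 83.8% of 11398 tested genes with a known length. Sox5, at 2.81 ± 0.223 and 3.68 ± 0.808 CPM per kb, and Sox9, at 1.49 ± 0.260 and 0.765 ± 0.0951, formed a lower tier and lay above 27.0% and 11.9% of those genes. Irf4, Tfec, Tfap2b and Foxd3 made up the lowest tier, from 0 to 0.0785 CPM per kb. Pax3 and Tfap2a overlapped in parental cells, and Tfap2b and Tfec as well as Tfec and Foxd3 in TRCs. These neighbours did not differ beyond their spread. All other neighbours in this order had non-overlapping libraries per kb. In CPM, without the length, Sox10 and Mitf overlapped in both groups.

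**Figure D1:**
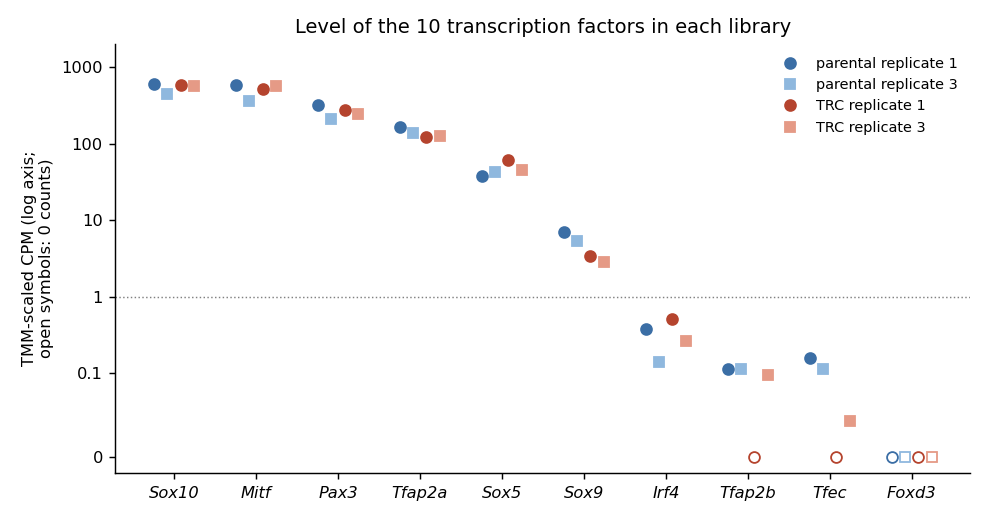
Level of the 10 factors in each library, as TMM-scaled CPM on a logarithmic axis. Circles are replicate 1, squares replicate 3, blue parental and red TRC libraries. Open symbols are libraries without a count, drawn at a fixed height labelled 0. The dotted line is 1 CPM, the level of the filter. The symbols of Mitf, Sox10 and Pax3 interleave between the groups, and those of Sox9 are lower in both TRC libraries.

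Sox10 (ENSMUSG00000033006, GRCm38 chr15:79154908-79165240, minus strand) had 26753 and 15913 counts in the parental libraries (replicates 1 and 3, an order kept below) and 24544 and 23594 in the TRC libraries. On the CPM scale this was 602 and 451 against 590 and 567, so both TRC libraries lay between the parental libraries. Its log2 fold change, TRC minus parental, was 0.14 (SE 0.21, 95% interval -0.28 to 0.56, FDR = 0.764 by the edgeR exact test, SE and interval from DESeq2 here and below). The interval corresponds to 0.822 to 1.47 times the parental level, so changes within these bounds remain compatible with the data. The parental libraries differed from each other by 0.42 on the log2 scale, more than 72.2% of genes did, and the TRC libraries by 0.058.

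Mitf (ENSMUSG00000035158, chr6:97807052-98021349, plus strand), the master regulator of the lineage, had 26072 and 12620 counts in the parental and 21724 and 23708 in the TRC libraries. In CPM these were 586 and 358 against 523 and 570. Again both TRC libraries lay inside the range of the parental libraries. The log2 fold change was 0.21 (SE 0.26, 95% interval -0.30 to 0.73, FDR = 0.664, edgeR exact test), or 0.813 to 1.65 times the parental level. Parental replicate 1 exceeded parental replicate 3 by 0.71 on the log2 scale, a difference larger than that of 90.1% of genes, whereas the TRC libraries differed by -0.12. The direction of the change rested on this pair: the log2 fold change was -0.10 without parental replicate 3 and 0.61 without parental replicate 1, with FDR = 0.909 and 0.144. Sox10 behaved likewise, with -0.056 without parental replicate 3 and 0.36 without parental replicate 1. The counts sum over the whole gene, and the several isoforms of Mitf, which start at separate promoters, were not separated in them. The processed pseudogene Gm15531, which lies inside Mitf on the opposite strand without sharing exon bases, had 1 count, in parental replicate 3.

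The promoters show what such a gene-level count holds together. RefSeq (GRCm38.p6) gives 3 Mitf starts, and the most downstream is the start used for the melanocyte form of the gene. The window around it, mostly upstream, is shown for the plus strand, chr6:97991533-97991832, with the CRE sequence TGACGTCA, the letters bound by CREB family factors, in capitals. Letters were searched on both strands and a match is a description only.

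Mitf, most downstream start: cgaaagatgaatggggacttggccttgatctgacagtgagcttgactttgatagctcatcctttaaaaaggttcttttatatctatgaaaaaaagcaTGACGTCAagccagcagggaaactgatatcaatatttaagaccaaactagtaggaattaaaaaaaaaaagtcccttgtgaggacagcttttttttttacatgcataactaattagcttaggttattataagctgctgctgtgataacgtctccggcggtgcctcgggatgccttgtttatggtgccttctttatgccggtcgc

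The CRE stood 153 bases before this start and was found in no window of the other 2 Mitf starts. It occurred in 1.79% of all 32851 promoter windows of the same length. Of the 10 factors, 7 had an entry, with 10 windows. The E-box CATGTG, found in 14.15% of all windows, and the SOX letters ACAAAG, found in 18.71%, were in none of these 10 windows, and CACGTG, found in 7.15%, was in the window of Foxd3 only, which also held the CRE, so that the CRE was in 2 of the 10.

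Pax3 (ENSMUSG00000004872, chr1:78101267-78197134, minus strand), a paired-box factor that acts upstream of Mitf, had 14006 and 7313 counts in the parental and 11325 and 10052 in the TRC libraries. Its levels were 315 and 207 CPM against 272 and 242 CPM. As for Sox10 and Mitf, the TRC values lay inside the parental range. The log2 fold change of -0.023 (SE 0.25, 95% interval -0.51 to 0.47, FDR = 0.968, edgeR exact test) corresponded to bounds of 0.703 and 1.38 times the parental level. The parental libraries differed by 0.60 on the log2 scale, more than 85.6% of genes, and the TRC libraries by 0.17. Its sign followed the library left out: it was 0.31 without parental replicate 1, -0.29 without parental replicate 3, -0.13 without TRC replicate 1 and 0.052 without TRC replicate 3, with FDR between 0.506 and 0.953.

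Tfap2a (ENSMUSG00000021359, chr13:40715302-40738376, minus strand) encodes the AP-2 factor that was abundant here. It had 7378 and 4864 counts in the parental and 5026 and 5290 in the TRC libraries. On the CPM scale, 166 and 138 stood against 121 and 127, lower in both TRC libraries without overlap. Its log2 fold change was -0.29 (SE 0.20, 95% interval -0.69 to 0.11, FDR = 0.430, edgeR exact test) and -0.15 without parental replicate 1. The difference was about as large as the 0.27 between the parental libraries. An antisense gene, Gm26688, shares 380 bases of exon with Tfap2a and had 132, 63, 109 and 69 counts in the same order. The strand setting of the counting is not stated in the sources used here, so the reads of this stretch cannot be assigned to either gene with certainty.

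Sox5 (ENSMUSG00000041540, chr6:143828425-144781977, minus strand) was the only tested factor that was higher in both TRC libraries without overlap. It had 1697 and 1507 counts in the parental and 2541 and 1860 in the TRC libraries, which is 38.2 and 42.7 CPM against 61.1 and 44.7 CPM. The separation was narrow, since TRC replicate 3 lay just above parental replicate 3. The log2 fold change of 0.39 (SE 0.25, 95% interval -0.098 to 0.88, FDR = 0.301, edgeR exact test) became 0.13 without TRC replicate 1 and 0.59 without TRC replicate 3. The TRC libraries differed by 0.45 on the log2 scale, more than 80.4% of genes, and the parental libraries by -0.16. The annotated antisense genes inside Sox5 that the count data list had no count.

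Sox9 (ENSMUSG00000000567, chr11:112782224-112787760, plus strand) showed the largest difference of the 6. It had 307 and 190 counts in the parental and 143 and 120 in the TRC libraries. Scaled, 6.90 and 5.38 CPM stood against 3.44 and 2.88 CPM, so that both TRC libraries were below both parental libraries. The log2 fold change was -0.96 (SE 0.40, 95% interval -1.75 to -0.17), or 0.515 times the parental level with bounds of 0.298 and 0.891. The unadjusted p of the edgeR exact test was 0.0259 and the FDR over all genes was 0.114. The FDR ranged from 0.0218 to 0.498 over 14 alternatives and was under 0.05 in 1 of them, an alternative chosen after seeing the data that drew the dispersions toward a common value. The log2 fold change stayed between -1.13 and -0.77 with each library left out. It was larger than the difference between the parental libraries, 0.33, and between the TRC libraries, 0.22. At the lowest count, 120, counting error alone was 9.13%. With 2 libraries against 2, an exact permutation test on a single gene cannot give a p below 0.333, so the call depends on the spread borrowed from other genes.

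**Figure D2:**
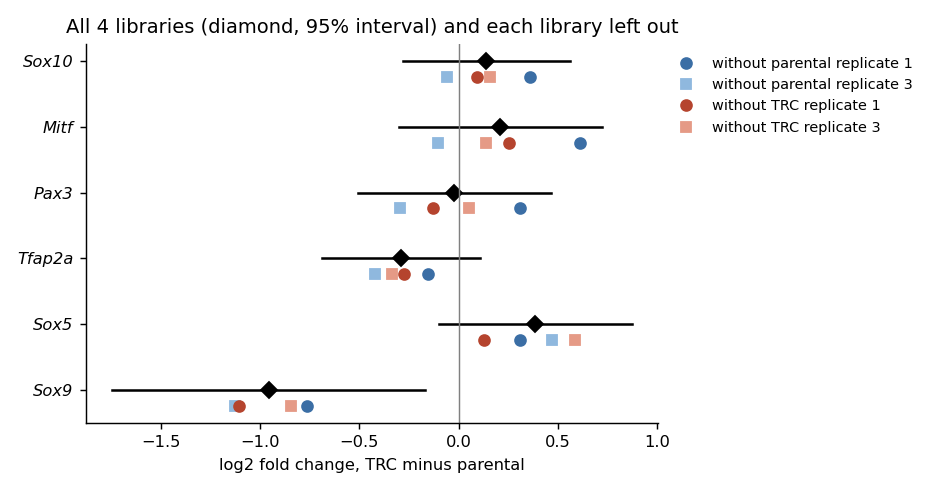
Log2 fold change of the 6 tested factors, TRC minus parental, with the value from all 4 libraries as a diamond, its 95% interval as a line, and the values with each library left out as coloured symbols. The interval of Sox9 lies below 0, those of the other 5 span 0, and the values of Mitf, Sox10 and Pax3 without parental replicate 1 and without parental replicate 3 fall on opposite sides of 0.

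For Mitf, Sox10 and Pax3 the difference between the parental libraries was larger than the difference between the groups, and for Sox9, Sox5 and Tfap2a it was smaller. Parental replicate 1 was higher than parental replicate 3 in 5 of the 6 factors, all but Sox5. The median of this difference over the 6 was 0.37, beside -0.0042 over all genes tested. Over all genes its SD was 0.452, with 90% of the genes between -0.56 and 0.85, so every factor lay within the range of most genes. In 5 of the 6, again all but Sox5, the parental libraries differed more than the TRC libraries did. The 3 genes whose pattern over the 4 libraries was most like that of Mitf, by the root mean square difference of centred log2 values, were Trpv2 (0.0168), Mrpl24 (0.0197) and Nagk (0.0204). For Sox10 they were Dnhd1 (0.0125), Gm21092 (0.0189) and Tmbim1 (0.0189). These lists rest on 4 libraries and 11483 genes and carry no test.

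**Figure D3:**
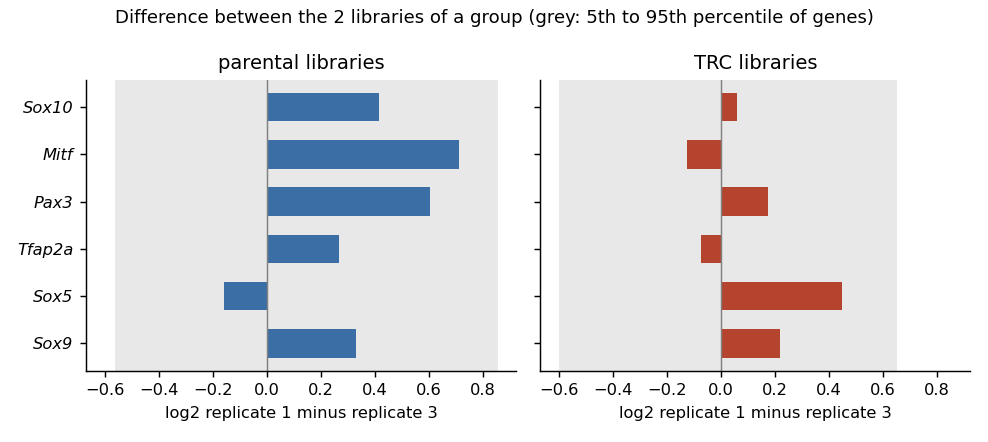
Log2 level in replicate 1 minus replicate 3 for the 6 tested factors, in the parental libraries (left) and the TRC libraries (right), as bars from 0. The grey band holds the genes between the 5th and 95th percentile. Mitf at 0.71 and Pax3 at 0.60 have the longest parental bars, and Sox5 at 0.45 the longest TRC bar.

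Ratios of the factors per kilobase within a library were computed after their levels had been seen and carry no test. Sox10 was 118 and 114 times Sox9 in the parental libraries and 233 and 266 times in the TRC libraries. Mitf was 56.7 and 44.3 times Sox9 in parental and 101 and 132 times in TRC libraries. Sox5 was 1.59 and 2.28 times Sox9 in parental and 5.11 and 4.46 times in TRC libraries. These 3 ratios share the low counts of Sox9 and none overlapped between the groups. Of all single genes tested, 60.6% did not overlap either. Sox10 over Mitf, by contrast, was 2.08 and 2.56 in parental and 2.29 and 2.02 in TRC libraries and overlapped. Mitf over Pax3, a ratio without Sox9, was 1.86 and 1.72 in parental and 1.92 and 2.36 in TRC libraries and did not overlap.

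The other 4 factors were left out by the filter on low counts. Irf4 (ENSMUSG00000021356, chr13:30749226-30766976, plus strand) had 17 and 5 counts in the parental and 21 and 11 in the TRC libraries, a level that varied as much within as between groups. Summed, 32 TRC counts against 22 parental counts gave a ratio of 1.39 (95% exact interval 0.786 to 2.52, scaled to library size). Tfec (ENSMUSG00000029553, chr6:16833373-16898441, minus strand) had 7 and 4 parental counts and 0 and 1 TRC counts. Its ratio, from 1 TRC count against 11, was 0.0872 (0.00203 to 0.60), and with no filter its FDR was 0.139 by the edgeR exact test. Tfap2b (ENSMUSG00000025927, chr1:19208914-19238576, plus strand) had 5 and 4 parental counts and 0 and 4 TRC counts, with a ratio of 0.426 (0.0959 to 1.53). Foxd3 (ENSMUSG00000067261, chr4:99656299-99658622, plus strand) was listed at 0 in every library, which at these depths allows up to 0.0850 CPM if its reads were counted. Sox12, Sox13 and Twist1 were also listed at 0 in every library, and the sources used here do not tell whether such rows, markers of other cell types included, hold a measured 0. These intervals cover counting error only.

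Among the relatives of the factors, too, no gene was called. Of 29 paralogs of the MiT/TFE, SOX, PAX, AP-2, FOXD and IRF families 13 were tested, and none reached an unadjusted p under 0.05 in the edgeR exact test, the quasi-likelihood test or DESeq2. Of all genes tested, 15.9% were called. The median of the paralogs was 0.17 on the log2 scale. With 1 library left out, Irf7 was called higher without parental replicate 1 (2.67, FDR = 0.00455), and it is named after its values were seen. Tfe3 and Tfeb, which share the binding domain of MITF, had 67.9, 59.3, 71.1 and 68.2 CPM and 14.6, 13.3, 15.9 and 18.7 CPM in the order parental 1, parental 3, TRC 1 and TRC 3. Sox6, the partner of SOX5, had 129, 121, 116 and 89.2 CPM in that order. The change was -0.28 on the log2 scale (FDR = 0.466, edgeR exact test).

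Among 31 other neural crest transcription factors, 15 were tested and 1 was called, against 7.05% of all genes called lower, with a list median of -0.16. It was Id3, an inhibitor of basic helix-loop-helix factors, with 29.3 and 11.5 CPM in the parental and 8.18 and 5.79 CPM in the TRC libraries. Its log2 fold change of -1.55 (FDR = 0.00715, edgeR exact test) became -0.72 without parental replicate 1 (FDR = 0.279) and -1.33 without TRC replicate 3 (FDR = 0.181), and the FDR ranged from 1.18e-05 to 0.279 over 14 alternatives. Snai2, Zeb2 and Ets1, crest factors that melanocytic cells also express, had log2 fold changes of -0.41, 0.20 and -0.30 with FDR = 0.641, 0.605 and 0.417 (edgeR exact test).

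Upstream of the lineage factors, 7 of 19 receptors and ligands were tested, with 1 called higher and 1 called lower, beside 8.81% and 7.05% of all genes, and a median of 0.35. Met, the receptor of hepatocyte growth factor and also a target of MITF, had 654 and 372 CPM in parental and 715 and 1150 CPM in TRC libraries. Its log2 fold change of 0.86 (FDR = 0.0401, edgeR exact test) was 0.51 without parental replicate 3 (FDR = 0.466), 0.47 without TRC replicate 3 (FDR = 0.498) and 1.33 without parental replicate 1 (FDR = 0.00338). It was called in 6 of 14 alternatives. Kitl, the ligand of the receptor KIT, was scarce and passed the filter only through the parental libraries, with 1.33 and 1.45 CPM in parental and 0.144 and 0.529 CPM in TRC libraries (log2 fold change -2.03, FDR = 0.0124, edgeR exact test). It was called in 7 of 12 alternatives, and not without TRC replicate 1 (-1.40, FDR = 0.315) or without parental replicate 3 (-1.97, FDR = 0.0573). Neither the quasi-likelihood test nor DESeq2 called Kitl. Without TRC replicate 3 its log2 fold change was -3.24. Mc1r, the melanocortin receptor that raises Mitf transcription through CREB, had 256 and 123 CPM in parental and 301 and 356 CPM in TRC libraries. It was not called (log2 fold change 0.79, FDR = 0.0655, edgeR exact test).

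Of 23 regulators and cofactors of MITF, 20 were tested and 4 were called, all higher in TRCs, beside 8.81% of all genes. The median of the list was 0.083, with 10 members above and 10 below 0. Cited1, a transcriptional coactivator of melanocytic cells, rose from 12.1 and 17.7 CPM to 45.5 and 117 CPM (log2 fold change 2.44, SE 0.40, FDR = 3.95e-08, edgeR exact test). Its TRC libraries differed widely, and the log2 fold change was 1.61 without TRC replicate 3, with FDR = 0.000902. Bhlhe40, a helix-loop-helix repressor that binds E-boxes, rose from 57.9 and 93.5 to 175 and 380 CPM (1.87, SE 0.36, FDR = 8.98e-06, and 1.20 without TRC replicate 3 with FDR = 0.00809). Tbx2, a T-box repressor controlled by MITF in melanocytes, rose from 90.9 and 89.0 to 180 and 202 CPM (1.09, SE 0.19, FDR = 8.37e-05). Cited1, Bhlhe40 and Tbx2 were called in all 14 alternatives. Zfp36l1, an RNA-binding protein, went from 44 and 44.4 to 83.5 and 61.7 CPM (0.72, FDR = 0.0224). That call was held in 7 of 14 alternatives and lost without parental replicate 1 (FDR = 0.0748), without parental replicate 3 (FDR = 0.111) and without TRC replicate 1 (0.47, FDR = 0.399). Creb1, which encodes a factor that binds the CRE letters shown above, had 106 and 83.7 CPM in parental and 98.0 and 88.0 CPM in TRC libraries.

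Some of the pigment genes that MITF and SOX10 act on were called. None of the factors was, and the difference between these sets was not tested. All 18 listed pigment targets were tested, and 4 were higher and 1 was lower in TRCs by the test, beside 8.81% and 7.05% of all genes. The median of the list was 0.41 on the log2 scale, and 14 of 18 members were above 0. Trpm1, a cation channel gene of melanocytes, rose from 30.1 and 41.9 CPM to 243 and 161 CPM (2.49, SE 0.28, FDR = 1.04e-15, edgeR exact test). Oca2, which encodes a melanosomal chloride transporter, rose from 30.1 and 15.5 to 97.8 and 78.0 CPM (1.95, SE 0.32, FDR = 3.22e-08). Both were called in all 14 alternatives. Dct, dopachrome tautomerase, rose from 5694 and 4334 to 11154 and 10027 CPM (1.08, SE 0.21, FDR = 0.000307). Its FDR ranged from 1.68e-05 to 0.0704 over 14 alternatives, and the quasi-likelihood test alone did not call it. Myo5a, the motor that carries melanosomes, went from 684 and 735 to 1400 and 1128 CPM (0.83, SE 0.20, FDR = 0.00558). It was called in 9 of 14 alternatives, and not without parental replicate 1 (FDR = 0.0615), parental replicate 3 (FDR = 0.0507) or TRC replicate 1 (FDR = 0.161). Rab32, a small GTPase of melanosome traffic, went from 61.3 and 67.2 to 43.0 and 35.7 CPM (-0.71, SE 0.22, FDR = 0.0208). It too was called in 9 of 14, and not without parental replicate 3 (FDR = 0.151), TRC replicate 1 (FDR = 0.0762) or TRC replicate 3 (FDR = 0.290).

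Other central pigment genes were not called. Tyr, tyrosinase, had 144 and 46.2 CPM in parental and 142 and 277 CPM in TRC libraries, which overlapped (log2 fold change 1.14, SE 0.87, FDR = 0.0593, edgeR exact test). Tyrp1 had 0.12 (FDR = 0.816), Pmel 0.45 (FDR = 0.202), Mlana 0.41 (FDR = 0.339) and Slc45a2 0.24 (FDR = 0.540). Slc24a5 was at 0.019 (FDR = 0.972). Below 0 and not called were Mlph at -0.51 (FDR = 0.118), Mreg at -0.093 (FDR = 0.842) and Gpnmb at -0.025 (FDR = 0.963). The plot of factors beside pigment genes shows the called pigment targets with Tyr and Mc1r, and no other pigment gene that was not called.

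**Figure D4:**
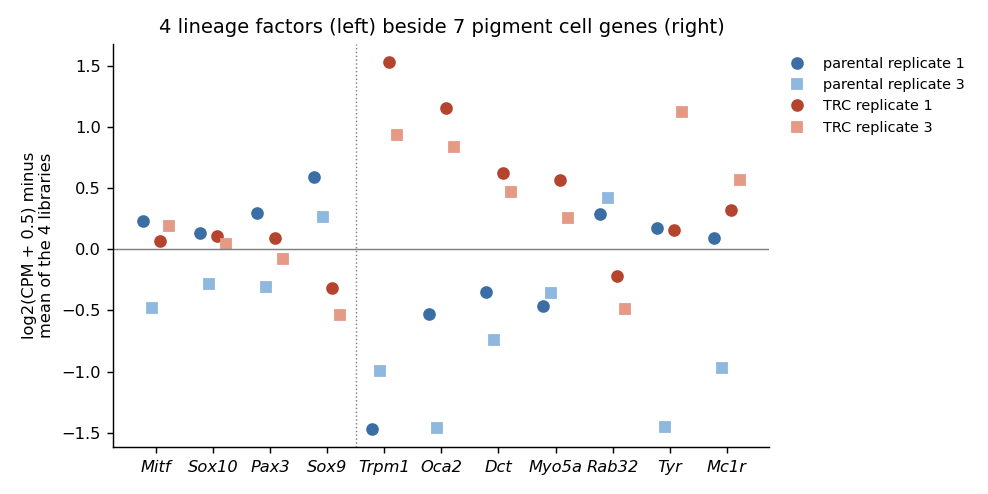
Level in each library as log2(CPM + 0.5) minus the mean of the 4 libraries, for 4 lineage factors (left of the dotted line) and 7 pigment cell genes (right of it), with circles for replicate 1, squares for replicate 3, blue for parental and red for TRC libraries. Trpm1, Oca2, Dct and Myo5a are above 0 in both TRC and below 0 in both parental libraries, whereas the TRC libraries of Mitf, Sox10 and Pax3 lie between their parental libraries.

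To show the letters that the factors are known to bind in the 3 pigment genes with the smallest FDR among those called higher, the RefSeq promoter windows (GRCm38.p6) of the upstream Trpm1 start, Oca2 and Dct are given 5′ to 3′ along the gene. The E-box CATGTG and the SOX letters ACAAAG are in capitals in either orientation (CACATG and CTTTGT on the opposite strand). The windows are chr7:64153585-64153884 for Trpm1 and chr7:56239509-56239808 for Oca2, both on the plus strand, and chr14:118052197-118052496 on the minus strand for Dct.

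Trpm1, upstream start: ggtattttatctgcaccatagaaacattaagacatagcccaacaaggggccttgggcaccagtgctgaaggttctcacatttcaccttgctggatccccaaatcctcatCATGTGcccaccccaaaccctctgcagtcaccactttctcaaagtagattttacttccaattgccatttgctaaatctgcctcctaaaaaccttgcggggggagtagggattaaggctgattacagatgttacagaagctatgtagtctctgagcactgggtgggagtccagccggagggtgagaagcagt

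Oca2: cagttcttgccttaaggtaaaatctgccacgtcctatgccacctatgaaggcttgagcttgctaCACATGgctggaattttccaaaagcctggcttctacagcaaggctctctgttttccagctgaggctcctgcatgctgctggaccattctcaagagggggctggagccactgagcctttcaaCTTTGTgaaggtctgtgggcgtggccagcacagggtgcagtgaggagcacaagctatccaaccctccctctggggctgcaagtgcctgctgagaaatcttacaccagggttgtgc

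Dct: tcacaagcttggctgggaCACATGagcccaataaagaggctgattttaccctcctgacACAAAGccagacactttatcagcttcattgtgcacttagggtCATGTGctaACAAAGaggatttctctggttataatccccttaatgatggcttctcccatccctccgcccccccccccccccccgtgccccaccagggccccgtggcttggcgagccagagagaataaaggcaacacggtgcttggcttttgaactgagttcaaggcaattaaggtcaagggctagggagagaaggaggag

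Of the 18 pigment targets, 13 had an entry, with 16 windows, and CATGTG was in 7 windows of 6 genes, beside 14.15% of all windows. The 6 genes were Tyr, Tyrp1, Dct, Trpm1, Slc24a5 and Oca2. They thus include 3 of the genes called higher and 3 that were not called. The windows of Myo5a and Rab32 held none of the letters searched.

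Outside pigmentation, 17 of 23 further targets of MITF were tested, with 5 called higher and 2 called lower, beside 8.81% and 7.05% of all genes. The median was 0.36, with 9 members above and 8 below 0. Scd1, a stearoyl-CoA desaturase gene, rose from 203 and 249 to 417 and 557 CPM (1.11, SE 0.23, FDR = 0.000306, edgeR exact test). Apex1, a base excision repair nuclease gene, fell from 75.8 and 120 to 47.1 and 41.3 CPM (-1.15, SE 0.27, FDR = 0.000329). Both were called in all 14 alternatives. Hif1a rose by 0.96 (FDR = 0.00209) and lost the call only without TRC replicate 1 (0.71, FDR = 0.126). Scd2 (0.73, FDR = 0.0328) was not called without parental replicate 1 (FDR = 0.273), TRC replicate 1 (FDR = 0.0738) or TRC replicate 3 (FDR = 0.298). Vps33a (-0.63, FDR = 0.0450) was not called without parental replicate 3 (FDR = 0.327), TRC replicate 1 (FDR = 0.363) or TRC replicate 3 (FDR = 0.131). Each of Scd2 and Vps33a was called in 7 of 14 alternatives, and Met, which also counts among the genes called higher, is described above. Cdk2 and Bcl2, a kinase and a survival gene under MITF, had log2 fold changes of 0.43 (FDR = 0.267) and -0.10 (FDR = 0.864).

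The MiT/TFE factors also drive lysosome and folliculin pathway genes. Of 18 such genes 17 were tested, with 1 called higher and 1 called lower, beside 8.81% and 7.05% of all genes. The median was -0.11. Neu1, lysosomal sialidase, rose from 59.4 and 42.3 to 97.1 and 110 CPM (1.02, SE 0.24, FDR = 0.000653, edgeR exact test). Sqstm1, the autophagy receptor p62, fell from 1486 and 1451 to 637 and 662 CPM (-1.18, SE 0.18, FDR = 1.26e-05). Both were called in all 14 alternatives.

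SOX10 also drives glial genes. Of 17 listed glial and Schwann targets 10 were tested, of which 2 were called higher and 1 lower, beside 8.81% and 7.05% of all genes. The median was 0.21. S100b, a calcium-binding protein gene of glia and melanocytic cells, rose from 61.3 and 43.2 to 193 and 206 CPM (1.93, SE 0.24, FDR = 5.87e-12, edgeR exact test). Fabp7, a fatty acid binding protein gene of radial glia and Schwann precursors, rose from 7.92 and 5.61 to 32.8 and 22.5 CPM (2.03, SE 0.32, FDR = 9.94e-07). Both were called in all 14 alternatives. L1cam, an adhesion molecule gene, went from 141 and 72.0 to 49.5 and 43.5 CPM (-1.19, SE 0.31, FDR = 0.00123). The value was -0.63 without parental replicate 1 (FDR = 0.0810) and -1.11 without TRC replicate 3 (FDR = 0.0755). Pmp22, a myelin gene of the same list, had 40.2 and 41.3 CPM in parental and 13.7 and 34.0 CPM in TRC libraries and was not called. Summed over 8 Schwann markers, the level was 343 and 232 CPM in parental and 338 and 211 CPM in TRC libraries.

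On the cartilage side, 12 of 23 targets of SOX9, SOX5 and SOX6 were tested. Of these, 3 were called higher and 2 were called lower, beside 8.81% and 7.05% of all genes. The median was 0.083, next to a Sox9 level that was not called and lower in both TRC libraries. Col2a1, the collagen of cartilage and a direct SOX9 target, had 2 and 6 counts in parental and 79 and 103 counts in TRC libraries (log2 fold change 4.37, SE 0.92, FDR = 2.23e-08, edgeR exact test). Its result was known from the study when the list was written. The parental libraries were under 1 CPM, so the gene was tested only through its TRC level of 1.90 and 2.48 CPM, and the 2 stricter filters left it out. Chst11, a chondroitin sulfotransferase gene, went from 0.990 and 0.992 to 6.40 and 3.29 CPM (2.29, SE 0.55, FDR = 0.00028, edgeR exact test, and 1.71 without TRC replicate 1). The filter used CPM before TMM scaling, and on that scale parental replicate 1 passed it too. The 2 stricter filters also kept Chst11. Col11a2 had 8.28 and 5.75 CPM in parental and 42.3 and 6.18 CPM in TRC libraries, which overlapped (1.79, SE 1.20, FDR = 0.0379). That call rested on TRC replicate 1, without which the log2 fold change was -0.20 (FDR = 0.928). It was also lost without parental replicate 1 and without parental replicate 3. Neither the quasi-likelihood test nor DESeq2 called Col11a2, and the call held in 6 of 14 alternatives.

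The cartilage genes called lower were both scarce and passed the filter only through the parental libraries, in which they were higher. A scarce gene kept through 1 group alone tends to differ, so these calls, like that of Col2a1, say nothing about the list as a whole. Matn3 went from 2.34 and 1.93 to 0.842 and 0.649 CPM (-1.51, FDR = 0.0229, edgeR exact test) and was not called without parental replicate 1 (FDR = 0.0921), TRC replicate 1 (FDR = 0.149) or TRC replicate 3 (FDR = 0.300). Runx2, a skeletal factor, went from 2.36 and 1.76 to 0.625 and 0.649 CPM (-1.69, FDR = 0.0124) and was not called without parental replicate 1 (FDR = 0.0698), TRC replicate 1 (FDR = 0.172) or TRC replicate 3 (FDR = 0.159). Matn3 and Runx2 were each called in 7 of 13 alternatives, and by neither the quasi-likelihood test nor DESeq2. Acan, the aggrecan gene, had 2 counts in parental replicate 1 and none in the others. The defining aggrecan transcript was thus at or near 0.

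Low MITF in melanoma is often met together with AXL and other genes of a dedifferentiated or invasive state. Of 26 such genes 10 were tested, with 2 called higher and 3 called lower, beside 8.81% and 7.05% of all genes. The median was -0.71. Loxl2, a lysyl oxidase gene, rose from 0.652 and 0.0850 to 3.54 and 8.60 CPM (4.0, SE 0.78, FDR = 3.93e-06, edgeR exact test), and its log2 fold change was 6.11 without parental replicate 1. It passed the filter only through the TRC libraries and was called in 11 of 12 alternatives. Axl, a receptor tyrosine kinase gene, had 8.50 and 2.35 CPM in parental and 39.4 and 9.78 CPM in TRC libraries (2.18, SE 1.19, FDR = 0.00923). The value was 0.83 without TRC replicate 1 (FDR = 0.558), 1.53 without parental replicate 3 (FDR = 0.170) and 3.38 without parental replicate 1 (FDR = 0.000291), and it was called in 10 of 14 alternatives. Ngfr, a neural crest stem cell receptor gene, had 25 and 4 counts in parental and 3 and 2 in TRC libraries.

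The 3 genes of that list called lower are tied to the actin cytoskeleton or to TEAD factors. Ccn1 went from 36.8 and 34.1 to 21.9 and 15.5 CPM (-0.92, FDR = 0.011, edgeR exact test) and was not called without parental replicate 1 (FDR = 0.0584) or TRC replicate 3 (FDR = 0.229). Tpm1, tropomyosin, went from 513 and 759 to 370 and 346 CPM (-0.83, FDR = 0.0125). Without parental replicate 3 it was -0.52 (FDR = 0.301), and the call was also lost without TRC replicate 1 (FDR = 0.0963) and TRC replicate 3 (FDR = 0.149). Tead4 went from 24.7 and 21.4 to 13.9 and 10.1 CPM (-0.94, FDR = 0.0297), with FDR between 0.0677 and 0.338 when any 1 library was left out.

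**Figure D5:**
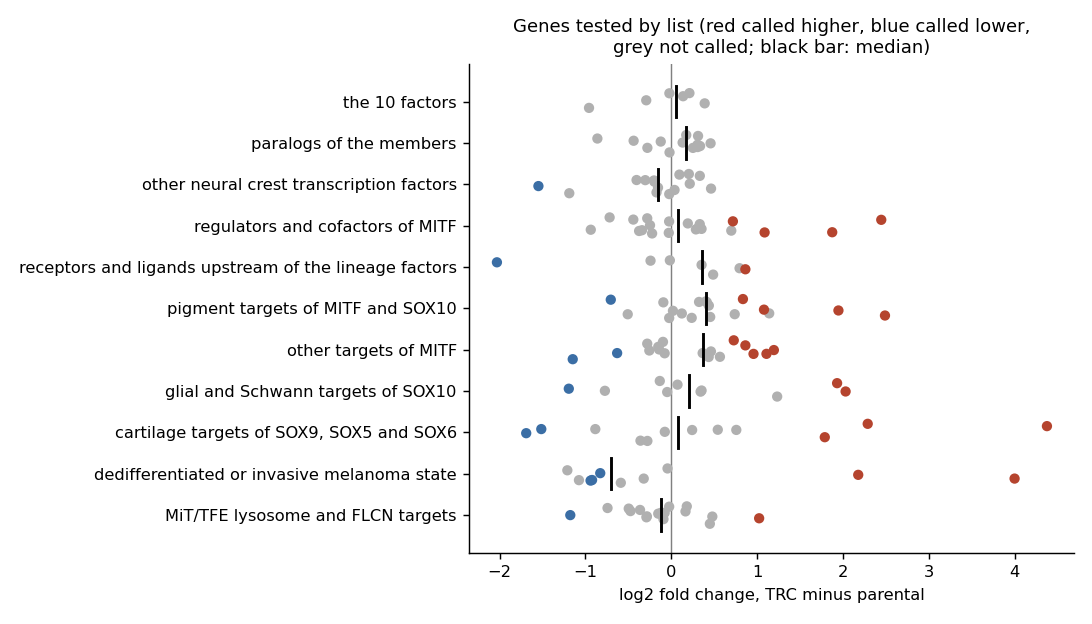
Log2 fold change, TRC minus parental, of every tested gene of the 10 factors and of 10 gene lists around them. Red dots were called higher, blue dots called lower, grey dots not called, and the black bar is the median of the list. The row of the factors and the row of their paralogs hold no called gene. The pigment row has a median of 0.41, with 14 genes above and 4 below 0. The row of other MITF targets has a median of 0.36, with 9 above and 8 below 0.

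Marker transcripts of fibroblasts, leukocytes, endothelial cells and keratinocytes were low, while the higher sums of the Schwann markers are given above. The summed level of 8 fibroblast markers was 12.1 and 10.1 CPM in parental and 5.82 and 3.24 CPM in TRC libraries, with Col1a2 called lower (-2.52, FDR = 4.15e-06, edgeR exact test). For 9 leukocyte markers the sum was 1.92 to 5.11 CPM, with 5 of 9 at 0 in every library, including Ptprc. For 6 endothelial markers it was 0.567 to 2.50 CPM and for 6 keratinocyte markers 0 to 0.0283 CPM. The part of these transcripts in the results was not tested.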

How the data were processed

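RNA-seq was measured in 2 parental and 2 TRC libraries, grouped by the cell type given in the labels. The authors trimmed reads of stranded libraries (Trimmomatic 0.35), aligned them to GRCm38 (TopHat2 2.1.0, Bowtie2 2.2.6) and obtained counts per Ensembl gene from HTSeq, as the paper and the submitters' processing notes say. The deposited values are raw counts per gene, not normalized, and the counting mode and strand setting are not given in the sources used here. Totals of reads on no gene (2.95% to 4.25% of alignments), ambiguous reads (0.825% to 0.955%) and reads that were not unique were removed first.

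A gene was left out when it had under 1 CPM, before TMM scaling, in at least 3 of the 4 libraries. The exact test of edgeR 4.0.16 (R 4.3.3) used common and tagwise dispersions, TMM factors, a prior count of 0.125 and Benjamini-Hochberg adjustment over 11483 genes, with calls at an FDR under 0.05. Standard errors and 95% intervals came from DESeq2 1.42.0. Differences between libraries used log2(CPM + 0.5). Intervals on counts cover counting error only. Symbols, positions and exon lengths came from GENCODE M21 (GRCm38), in which 37607 of 39179 identifiers were found, and promoter sequences from RefSeq (GRCm38.p6). Scripts were tested on simulated data. Plots used matplotlib 3.10.9.

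The factors and gene lists were chosen with earlier results of these data known. Named genes are all 10 factors, every called gene of a list up to 5 per direction, genes used to describe a level, genes that overlap a factor and have a count, and the 3 genes most like Mitf and Sox10 in pattern. Some genes that this rule selects are not reported here. Alternatives were other filters, normalizations, dispersions and tests, a replicate block and each library left out. A dispersion drawn toward the common value was added after seeing the data. Whether the shared numbers pair the libraries could not be taken from the labels.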

Additional observations from a re-analysis of the deposited data

How the results depend on the processing

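With 2 libraries per group, the spread is estimated mostly from other genes, and a fit without 1 library assumes that the lone library of its group varies like the others. The number of genes called, 1822 (1012 higher and 810 lower in TRCs), was 1054 (567 and 487) with the quasi-likelihood test, and lay between 773 and 1932 when any 1 library was dropped (500 to 1078 higher, 269 to 854 lower). The shared numbers could not be shown to pair the libraries, since deviations of same-numbered libraries correlated at r = 0.0267 across genes. With a replicate block the quasi-likelihood test called 785 genes (477 and 308). The number of lineage factors called, 0, became 1 (Sox9) only with dispersions drawn toward the common value. Over the same alternatives, 2 to 5 pigment targets, 3 to 4 regulators of MITF, 3 to 5 other MITF targets, 2 to 3 glial targets, 1 to 3 cartilage targets and 1 to 3 dedifferentiation genes were called higher, and 0 to 2, 0 to 1, 1 to 2, 0 to 2, 0 to 2 and 0 to 4 of them lower. The direction of change was reversed for Pax3 with the replicate block (0.0058). With 1 library dropped, the log2 fold change ran from -0.10 to 0.61 for Mitf, from -0.056 to 0.36 for Sox10, from -0.29 to 0.31 for Pax3 and from -0.20 to 2.58 for Col11a2. It turned for Mitf and Sox10 without parental replicate 3, for Pax3 without parental replicate 1 and without TRC replicate 3 (0.052), and for Col11a2 without TRC replicate 1. The alternatives that dropped a library had fewer samples, and otherwise the cause was not tested.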
